A study of Homo sapiens with 8 samples.

Results

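The genes NCOA1, NCOA2 and NCOA3 code for the 3 members of the p160 family of nuclear receptor coactivators, also called SRC-1, SRC-2 and SRC-3. Binding of the transcription factor GATA2 around them was read from ChIP-seq peak lists of VCaP cells. The 3 genes were taken out of 20037 protein-coding genes. GATA2 peaks were assigned to a gene when their summit lay within 100 kb of its RefSeq span, and overlapping peaks (1 bp or more) of the 4 lists were joined to a region. This gave 30 regions out of 36122 in the whole series. The family was chosen by the presence of GATA2 peaks near its genes in these same lists, so the presence and strength of the peaks are given as a description, without a test.

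A p160 protein does not bind DNA itself. It docks through short leucine-rich motifs onto a nuclear receptor that has bound its ligand, and brings the acetyltransferases p300 and CBP and the methyltransferase CARM1 to the receptor's enhancers. GATA2 is a zinc-finger transcription factor that binds GATA motifs at many enhancers of prostate cells. The peaks described here show where GATA2 bound near the coactivator genes, and hold no measure of their expression.

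VCaP is an established human prostate cancer cell line, labelled as castrate-resistant. Steroids were withheld from all cells for 72 h, and the cells were exposed for 24 h to either 1 µM JQ1, an inhibitor of the BET bromodomain proteins, or to the vehicle DMSO. The control libraries are titled as non-treated and are called untreated here. Each group had 2 GATA2 precipitates with a peak list each, and the 4 matching inputs were not used on their own. Whether the replicates are separate cultures is not stated in the labels.

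The lists differed in length far more between replicates than between treatments. They held 6902 peaks in untreated replicate 1, 27373 in untreated replicate 2, 4974 in JQ1 replicate 1 and 32404 in JQ1 replicate 2. The number of sequenced reads behind a list is not known from the files, so a missing peak in a replicate 1 list was a call not made at that list's sensitivity and not a measured absence. With 2 lists against 2, no exact permutation test over the lists could reach a p of 0.05. As a check of the cell line, KLK2, KLK3 and TMPRSS2, which are genes typical of prostate epithelium, each had 3 regions present in all 4 lists within 100 kb.

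All 3 coactivator genes had at least 1 GATA2 region present in all 4 lists, and NCOA2 carried most of the regions. NCOA1 had 8 regions, NCOA2 18 and NCOA3 4. Of the 30, 24 had their strongest summit inside the gene: 6 of 8 at NCOA1, 15 of 18 at NCOA2 and 3 of 4 at NCOA3. The genes themselves filled 279 of 479, 347 of 547 and 155 of 355 kb of the searched windows. A preference for the inside of genes was not tested. No summit lay in the span of another protein-coding gene. The outermost assigned summits were 55.2 kb from NCOA1, 25.9 kb from NCOA2 and 46.5 kb from NCOA3, and the nearest summits beyond the limit were 129, 120 and 173 kb away, so none lay close to the limit of 100 kb. Exons and introns were not analysed here.

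**Figure D1:**
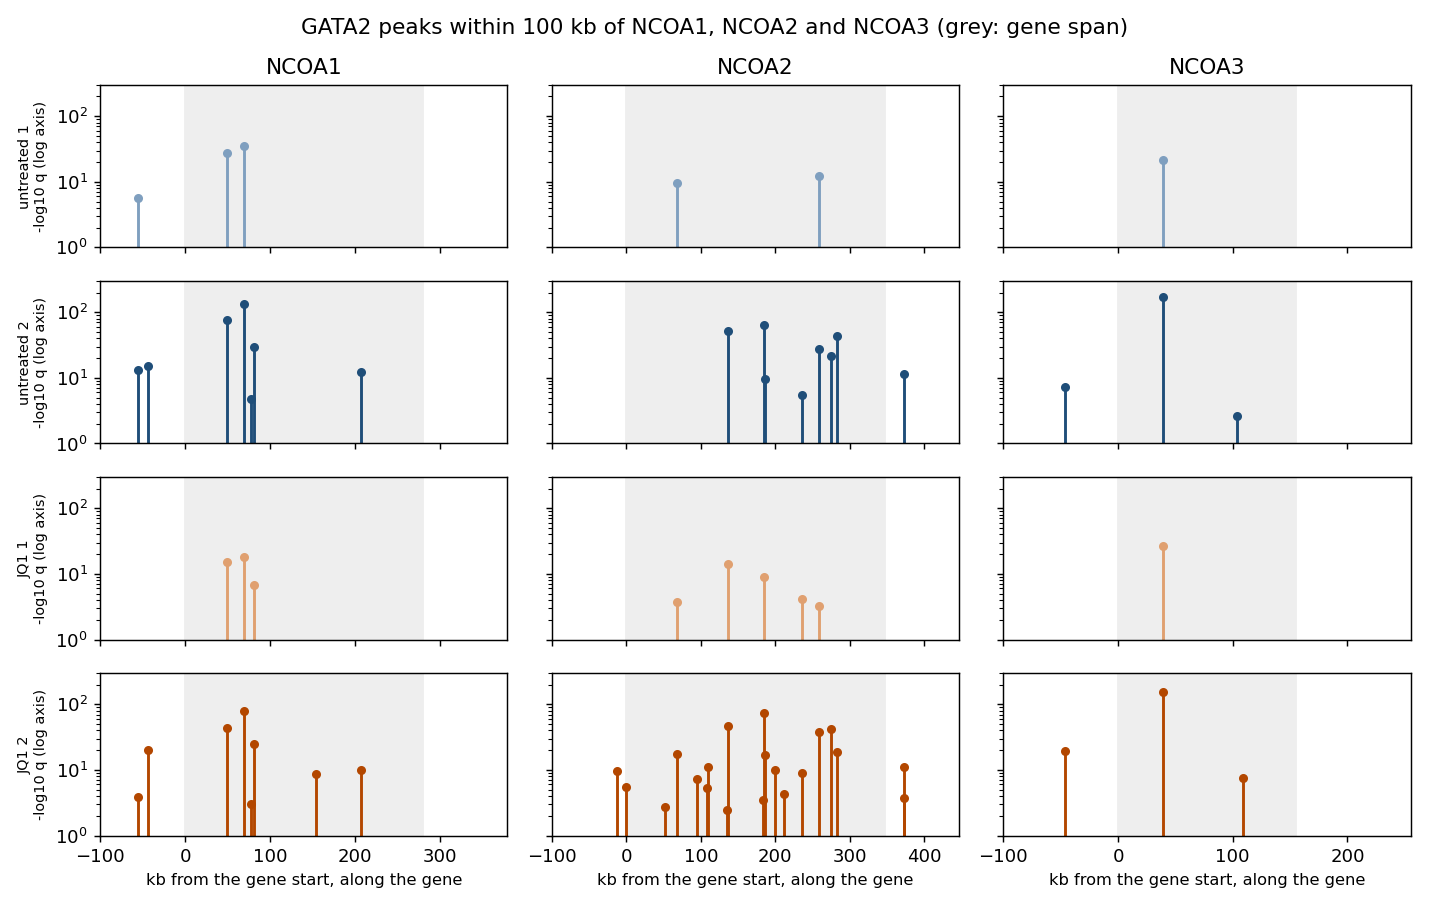
GATA2 peaks within 100 kb of NCOA1, NCOA2 and NCOA3 (columns) in the 4 peak lists (rows). The x axis is the distance of the summit from the gene start in kb, along the direction of transcription, the y axis is the −log10 q of the peak on a log axis, each stem is 1 peak and the grey area is the gene span. The NCOA3 peak at 38.8 kb stands in every list, and the JQ1 replicate 2 list has 20 peaks at NCOA2.

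Of the 30 regions, 4 were present in all 4 lists, a share of 13.3% where 8.96% of all merged regions in the series were. NCOA1 had 2 of the 4 and NCOA2 and NCOA3 had 1 each. A region in all 4 lists within 100 kb was found at 21.0% of all protein-coding genes and at 38.2% of the 1425 genes with a span of 150 to 350 kb, the class into which all 3 coactivator genes fall (279, 347 and 155 kb). At least 2 such regions, as NCOA1 had, were found at 5.13% of genes. The choice of the family used this presence, so nothing is read from the counts.

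None of the 3 gene starts given for NCOA1 by RefSeq, nor that of NCOA3, had a GATA2 peak over it in any list. The promoter windows are shown because the nearest binding lay elsewhere: the nearest summit was 43.4 kb from the first NCOA1 start, 12.3 kb from the internal start and 38.9 kb from the NCOA3 start. The sequences are from RefSeq (GRCh38.p14, plus strand) and each window of 300 bases spans a start. Capitals mark a match on either strand to the GATA motif, searched as AGATAA and as TGATAA, and also with a final G as AGATAG and as TGATAG, which 25.0% of 35116 promoter windows of this length held.
NCOA1, first start (chr2:24491004-24491303): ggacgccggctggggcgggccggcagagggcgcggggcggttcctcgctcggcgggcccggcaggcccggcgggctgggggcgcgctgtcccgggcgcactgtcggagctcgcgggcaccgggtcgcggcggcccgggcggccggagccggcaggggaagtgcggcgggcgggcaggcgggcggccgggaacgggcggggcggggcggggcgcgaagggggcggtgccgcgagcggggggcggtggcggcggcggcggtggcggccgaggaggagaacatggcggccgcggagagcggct
NCOA1, internal start (chr2:24584227-24584526): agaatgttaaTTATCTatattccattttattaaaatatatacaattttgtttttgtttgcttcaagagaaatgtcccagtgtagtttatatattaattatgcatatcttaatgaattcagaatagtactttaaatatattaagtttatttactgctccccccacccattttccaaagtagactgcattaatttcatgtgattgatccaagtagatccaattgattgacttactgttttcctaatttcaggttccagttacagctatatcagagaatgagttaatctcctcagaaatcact
NCOA3 (chr20:47501637-47501936): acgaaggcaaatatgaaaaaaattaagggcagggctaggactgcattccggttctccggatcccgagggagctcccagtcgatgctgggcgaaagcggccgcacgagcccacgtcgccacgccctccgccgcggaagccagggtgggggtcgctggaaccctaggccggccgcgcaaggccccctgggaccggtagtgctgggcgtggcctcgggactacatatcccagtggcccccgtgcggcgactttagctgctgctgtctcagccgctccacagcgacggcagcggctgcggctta
The internal NCOA1 window held 1 match, TTATCT, which is AGATAA read on the other strand, and the first NCOA1 window and the NCOA3 window held none. Base composition went from 28.7% G and C in the internal NCOA1 window to 85.7% in the first. A promoter window for NCOA2 was not used here, and the sequence under the peaks was not analysed here.

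NCOA3 had the strongest GATA2 peak of the family in 3 of the 4 lists. NCOA3, also known as AIB1 for its amplification in breast cancer, spans 47501887 to 47656872 on chromosome 20 (hg38, NCBI gene 8202). Its region in all 4 lists covered 47540543 to 47540918, 38.8 kb into the gene. The −log10 q of that peak, the authors' p-value adjusted for the number of tests and written so that larger is stronger, was 21.7 in untreated replicate 1 and 172 in untreated replicate 2. It was 26.9 in JQ1 replicate 1 and 153 in JQ1 replicate 2. The 2 replicate 2 values were high and the 2 replicate 1 values low, and the treatments overlapped.

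The NCOA3 peak stood near the top of both replicate 2 lists and lower in the replicate 1 lists. It ranked 1206th of 6902 peaks in untreated replicate 1 (top 17.5%), 129th of 27373 in untreated replicate 2 (top 0.471%), 343rd of 4974 in JQ1 replicate 1 (top 6.90%) and 219th of 32404 in JQ1 replicate 2 (top 0.676%). The median region present in all 4 lists stood at the top 28.9%, 7.92%, 36.9% and 7.41% in the same order, a weaker place in every list. The authors' fold enrichment over local background was 8.20, 43.0, 10.8 and 35.7. The 4 summits lay within 7 bp of each other, against a median spread of 24 bp over the 3236 regions in all 4 lists.

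The other NCOA3 regions were absent from both replicate 1 lists. A region 46.5 kb upstream of the gene start was in both replicate 2 lists, with a −log10 q of 7.38 untreated (top 73.2%) and 19.2 with JQ1 (top 33.7%). A region 104 kb into the gene was in the untreated replicate 2 list alone at 2.62, near the calling limit, and a region 109 kb into the gene in the JQ1 replicate 2 list alone at 7.44. Each list of a replicate held the same number of NCOA3 regions with and without JQ1, 1 in replicate 1 and 3 in replicate 2.

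NCOA1 had a cluster of GATA2 regions in the first part of the gene. NCOA1, the founding member of the family, spans 24491254 to 24770702 on chromosome 2 (NCBI gene 8648). Its 4 neighbouring regions lay 48.9, 69.5, 77.6 and 80.8 kb from the start, all upstream of the internal start shown above. The strongest, at 24560626 to 24560975, was present in every list. Its −log10 q was 34.8 and 133 in untreated replicates 1 and 2 and 18.1 and 80.0 in JQ1 replicates 1 and 2. The JQ1 value was the lower of each replicate pair, while the groups overlapped because replicates differed more. Its place was the top 7.69% and 1.59% without JQ1 and the top 15.6% and 4.56% with it, with a fold enrichment of 11.1, 34.3, 8.85 and 16.6.

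The other NCOA1 region of all 4 lists, at 24540002 to 24540460, showed the same order. Its −log10 q was 27.3 and 77.5 untreated and 15.1 and 43.6 with JQ1, and its fold enrichment was 11.4, 17.5, 6.73 and 14.1. Summits agreed within 36 bp there and within 13 bp at the stronger region. Such values depend on the depth and background of each list, and lists of different length cannot be ranked against each other, so the lower JQ1 values are set side by side and not counted as a change. Over all 3236 regions in all 4 lists the median −log10 q was 15.1 and 68.6 untreated and 10.4 and 62.4 with JQ1, also lower with JQ1 in each replicate.

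The remaining NCOA1 regions were each missing from at least 1 list. The region 80.8 kb into the gene was in both JQ1 lists (−log10 q of 6.73 and 24.5) and in untreated replicate 2 (29.8), but not in untreated replicate 1. A region 55.2 kb upstream of the gene had the opposite gap. It was in both untreated lists (5.69 and 13.3) and in JQ1 replicate 2 (3.86), and not in JQ1 replicate 1. Both replicate 2 lists alone held the regions 43.5 kb upstream (15.3 untreated, 20.2 with JQ1), 77.6 kb into the gene (4.72 and 3.04) and 207 kb into the gene (12.1 and 9.82). A region 153 kb into the gene was in JQ1 replicate 2 alone (8.59). In all, untreated replicates held 3 and 7 NCOA1 regions and JQ1 replicates 3 and 8.

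**Figure D2:**
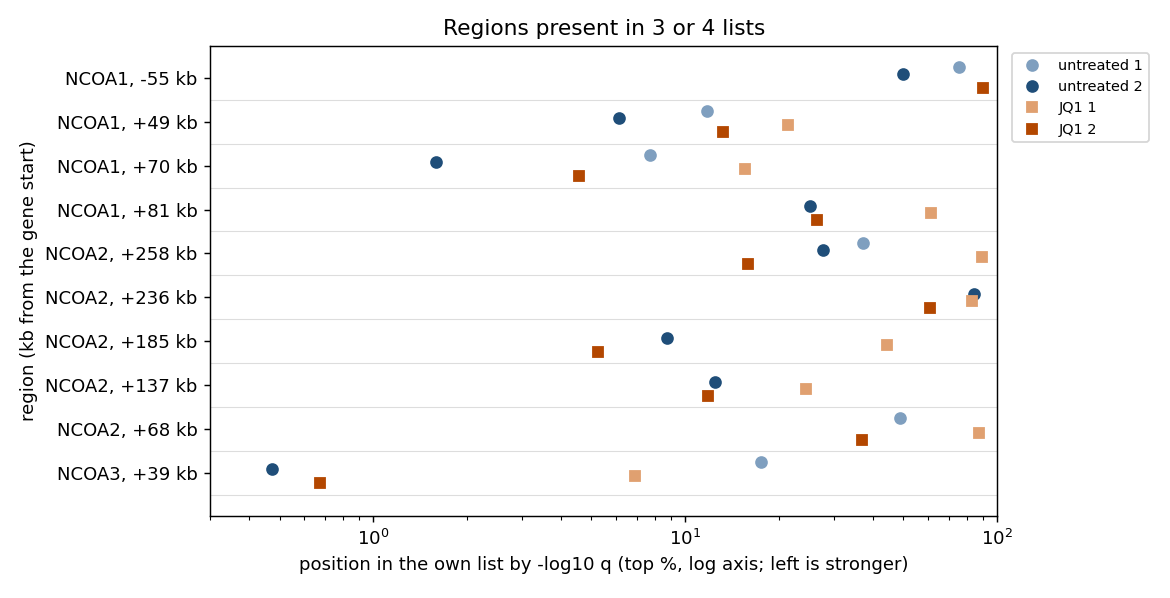
Place of the regions present in 3 or 4 lists within each list, by −log10 q. The x axis is the rank of the peak as a percentage of its own list on a log axis, the y axis names the gene and the distance from its start in kb, circles are untreated and squares JQ1 lists, and a missing symbol is a list without a peak. The NCOA3 region lies farthest left in both replicate 2 lists, at the top 0.471% and 0.676%.

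NCOA2 was the only member with more regions in the JQ1 list of both replicates. NCOA2, also known as TIF2 or GRIP1, spans 70109782 to 70456446 on chromosome 8 (NCBI gene 10499). Untreated replicates held 2 and 7 regions there and JQ1 replicates 5 and 18. The mean was 4.50 ± 3.54 (SD, n = 2) untreated and 11.5 ± 9.19 (SD, n = 2) with JQ1, so the groups overlapped and the difference of the means was smaller than the SD of the JQ1 lists. Within replicate 1 the JQ1 list had 3 more regions although it was the shorter list, and within replicate 2 it had 11 more. More regions in the JQ1 list of both replicates were found at 3.47% of all genes and at 7.16% of the genes of 150 to 350 kb. Fewer were found at 4.38% of all genes and at 0 of the 3 members. Of those 1425 genes, a difference as large as at NCOA2 or larger was found at 7 in replicate 1 and at 1, NCOA2 itself, in replicate 2. The family was chosen with the peaks of these lists known, so this place is a description and not a test.

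**Figure D3:**
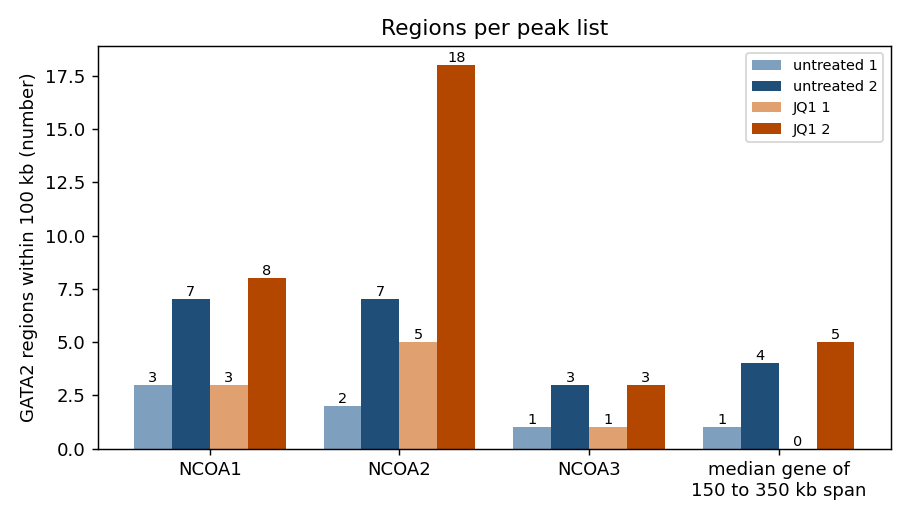
Number of GATA2 regions within 100 kb of each coactivator gene in each peak list, beside the median of the 1425 protein-coding genes with a span of 150 to 350 kb. The y axis is the number of regions and the bars are the 4 lists. At NCOA2 the JQ1 bars of 5 and 18 stand above the untreated bars of 2 and 7 of the same replicate, and at NCOA3 the bars of a replicate are equal.

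As a share of each list, the NCOA2 peaks made up 0.0290% of untreated replicate 1 (95% Wilson interval 0.00795 to 0.106), 0.0292% of untreated replicate 2 (0.0148 to 0.0577), 0.101% of JQ1 replicate 1 (0.0429 to 0.235) and 0.0617% of JQ1 replicate 2 (0.0400 to 0.0953). The intervals cover counting error only, and those of the treatments overlapped in each replicate. The excess within a replicate depended on the threshold and on the list length. At a −log10 q of 5 or more, replicate 1 had 2 NCOA2 peaks in either list, at different regions: 258 and 67.8 kb from the start in the untreated list and 185 and 137 kb in the JQ1 list. In the same setting replicate 2 had 8 untreated and 15 with JQ1. With every list reduced to its 4974 strongest peaks, replicate 1 had 2 untreated and 5 with JQ1, and replicate 2 had 3 in either list.

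The NCOA2 region of all 4 lists was among the weaker ones. It lay at 70198223 to 70198504, 258 kb from the gene start, since NCOA2 is transcribed towards lower coordinates. The −log10 q there was 12.4 and 27.1 without JQ1 and 3.29 and 38.3 with it, at the top 37.2%, 27.7%, 89.7% and 15.9%. The JQ1 value was the lower in replicate 1 and the higher in replicate 2, and the 4 summits lay within 10 bp. At a −log10 q of 5 or more this region was no longer in all 4 lists, because of the weak peak of JQ1 replicate 1. With lists of equal length NCOA2 also had no region in all 4 lists.

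Of the 5 NCOA2 regions present in both JQ1 lists, 3 were also in untreated replicate 2 and missing from untreated replicate 1. The strongest lay 185 kb into the gene, at 70270689 to 70271334. Its −log10 q was 64.8 in untreated replicate 2, 9.07 in JQ1 replicate 1 and 74.6 in JQ1 replicate 2. The next, 137 kb into the gene at 70319606 to 70319928, had 52.2, 14.2 and 47.0. The third, 236 kb into the gene, had 5.51, 4.12 and 9.06. Over the family 4 of 9 JQ1 recurrent regions, those present in both JQ1 lists, showed this gap, against 28.2% of all 4714 in the series. JQ1 recurrent regions made up 13.1% of all merged regions and 9 of the 30 here, and each of the 9 was in at least 1 untreated list, as were 97.1% in the series. As many as the 5 at NCOA2 were found at 0.344% of genes and at 1.19% of those of 150 to 350 kb. Both shares are for the lists as deposited. At a −log10 q of 5 or more NCOA2 had 2 JQ1 recurrent regions in place of 5, and with lists of equal length also 2.

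A further NCOA2 region showed a rarer gap. The region at 70388609 to 70388815, 67.8 kb into the gene, was in untreated replicate 1 (−log10 q 9.64), JQ1 replicate 1 (3.77) and JQ1 replicate 2 (17.5), but not in the long list of untreated replicate 2. Of the 4714 JQ1 recurrent regions in the series, 0.276% were present in untreated replicate 1 and absent from untreated replicate 2. Such a region is present in the shortest list and missing from a list several times longer.

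Regions in both replicate 2 lists alone were 38.0% of all merged regions and 7 of the 30 near the coactivator genes. NCOA2 had 3 of the 7, 283 and 275 kb from the start and 25.7 kb beyond the low end of the span. The −log10 q was 43.6 untreated and 19.0 with JQ1 at the first, 21.5 and 42.3 at the second and 11.4 and 10.9 at the last. The first was higher in the untreated list and the second in the JQ1 list.

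Most NCOA2 regions of JQ1 replicate 2 were in no other list. There were 10 of these, against 1 each at NCOA1 and NCOA3 and none in untreated replicate 2 alone at NCOA2. Regions in JQ1 replicate 2 alone were 25.9% of all merged regions and 12 of the 30 near the coactivator genes. As many as 10 were found at 13 genes, or 0.0649% of all, and at 0.0702% of those of 150 to 350 kb, where NCOA2 alone had as many. The other 12 had spans of 528 to 2170 kb, among them ARHGAP24, CAST and EPHA6, while NCOA2 spans 347 kb. This count was looked up after the NCOA2 values had been seen.

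These 10 regions were weak and spread over the gene. Their −log10 q ran from 2.42 to 10.9 with a median of 5.43, at the top 54.1% to 97.4% of the list, where the 9348 regions of that kind in the series had a median of 6.30. Their fold enrichment ran from 3.07 to 5.93. A summit at 70456730 lay 284 bp before the NCOA2 start, the summit nearest to a start of any member, with a −log10 q of 5.56 and a fold of 3.13. A further 1 lay 12.9 kb upstream of the start (9.54), and the other 8 lay between 51.5 and 211 kb into the gene.

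The local background differed between the genes and lists. Both the pileup of fragments at a summit and the background expected there could be recovered from the authors' fold and p-value. In JQ1 replicate 2 the background under the 10 regions had a median of 2.57 times the lowest value of the list, with a range of 1.70 to 5.91, against 1.56 times for all regions of that kind. At the promoter summit 31 fragments stood over a background of 9.24. Over all NCOA2 peaks the median was 2.54 and 2.09 times the lowest value without JQ1 and 3.38 and 2.83 times with it, higher with JQ1 in each replicate. These medians are over different sets of peaks, 2 and 8 untreated and 5 and 20 with JQ1. At the NCOA2 region in all 4 lists the background was 3.1 and 2.83 times untreated and 4.2 and 1.91 times with JQ1. It was lower with JQ1 there in replicate 2. At the strongest summit, every other NCOA2 region held by both lists of a replicate had the higher value with JQ1. In replicate 1 the region 67.8 kb into the gene had 1.97 untreated and 2.8 with JQ1. In replicate 2 the smallest rise was from 2.07 to 2.27, 283 kb into the gene. The largest was from 1.78 to 4.73, 185 kb into the gene. At NCOA1 the median was 1.86 and 1.49 untreated and 2.22 and 1.77 with JQ1, also higher in each replicate. At NCOA3, with 1 peak in each replicate 1 list and 3 in each replicate 2 list, it was 3.10 and 1.92 untreated and 2.40 and 1.26 with JQ1, lower in each replicate. The part of the local background in the number of NCOA2 peaks was not tested.

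**Figure D4:**
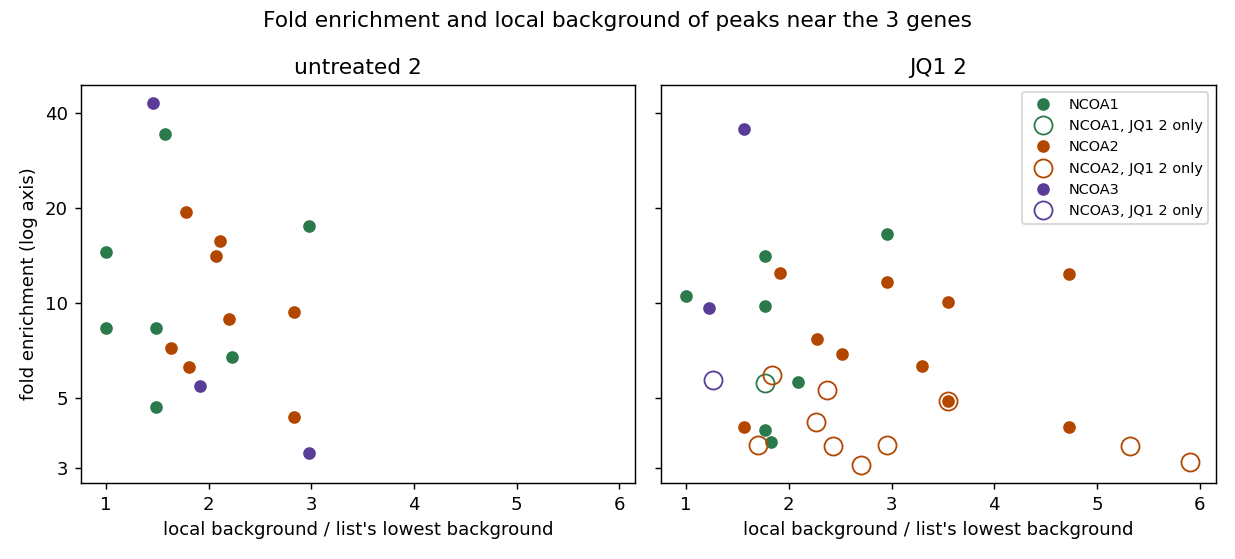
Fold enrichment and local background of each peak near the 3 genes in the 2 long lists, untreated replicate 2 (left) and JQ1 replicate 2 (right). The x axis is the background at the summit divided by the lowest background of the list, the y axis is the authors' fold enrichment on a log axis, colours are the genes, and open circles are regions present in JQ1 replicate 2 alone. The open circles of NCOA2 lie at a fold of 3.07 to 5.93 and at a background of 1.70 to 5.91.

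The background was also read in the flanks of NCOA2. Within 5 Mb of the gene, outside its own window, the median was 3.35 and 2.23 times the lowest value without JQ1 and 3.0 and 2.58 times with it. The flanks held 37 peaks in either list of replicate 1, and 160 untreated and 176 JQ1 peaks in replicate 2. The NCOA2 window held 2 untreated and 5 JQ1 peaks in replicate 1, and 8 untreated and 20 JQ1 peaks in replicate 2. The difference between window and flanks was not tested.

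The members were ordered alike in most lists by their strongest peak. The order from strong to weak was NCOA3, NCOA1, NCOA2 in untreated replicate 2 (−log10 q of 172, 133 and 64.8), in JQ1 replicate 1 (26.9, 18.1 and 14.2) and in JQ1 replicate 2 (153, 80.0 and 74.6). In untreated replicate 1 NCOA1 came before NCOA3 (34.8, 21.7 and 12.4). Each value is a single peak without an error, so neighbours such as NCOA1 and NCOA2 in JQ1 replicate 2 cannot be told apart.

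Treatment separated no region of the family in the lists as deposited. No region had peaks in both lists of 1 treatment and none in the lists of the other (0 in each direction). Over the series 0.620% of all merged regions were separated towards untreated and 0.377% towards JQ1. With shares this small, 0 of 30 is not read as a result about the family. At a −log10 q of 5 or more, 1 region at NCOA1 was separated towards untreated. Of the 5 untreated recurrent regions, those in both untreated lists, 4 were in both JQ1 lists and the other was in JQ1 replicate 2. Over the whole series 50.8% of untreated recurrent regions were in both JQ1 lists and 96.5% in at least 1. Untreated recurrent regions made up 17.6% of all merged regions.

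The genes with the most similar strength of binding were found from the place of their strongest peak in each of the 4 lists, among genes with the same number of regions in all 4. For NCOA2 they included GOLGA4 and FAM177A1, with summed log10 differences over the 4 lists of 0.208 and 0.216. GOLGA4, which codes for a golgin, had 5 regions and FAM177A1 had 2, against 18 at NCOA2. For NCOA1 they were NAF1 (0.334) and, at the same regions, DIP2C and LOC124902361 (both 0.349). For NCOA3 the nearest were ATF3, BATF3 and GARIN4, neighbours that share their leading region, at 0.479, a larger gap than for the other members. ATF3 is a stress-induced transcription factor gene, whose leading peak had a place of 9.17%, 0.453%, 4.95% and 0.620% from the top in the 4 lists.

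Among genes that work with the p160 proteins, 10 of the 14 with binding in all 4 lists were receptor genes. The receptor list was also the largest, with 18 genes. Of 48 genes in 5 lists of coregulators and receptors, 14 had a region in all 4 lists within 100 kb (29.2%), against 21.0% of all genes. These genes had a median span of 96.7 kb and all genes 24.1 kb, and longer genes reach more regions. Of 7 p160 partners, none had one. Their median span was 51.5 kb, against 113 kb for the receptor genes. With so few and shorter genes, and a share of 21.0% over all genes, this is not read as a result about the partners. EP300 and CARM1, which code for p300 and for an arginine methyltransferase, had no region in any list, and CREBBP, the gene of CBP, had 4 regions, of which 1 was untreated recurrent and none JQ1 recurrent. These 3 genes, and NCOA4, NCOA5 and NCOA6, were named after their values had been seen.

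Of the 18 nuclear receptor genes, 10 had a region in all 4 lists. They included RXRA, the shared partner of many receptors, whose leading peak had a place of 3.30% and 3.87% from the top without JQ1 and of 1.45% and 2.10% with it. PPARA, a receptor of fatty acids, and HNF4A each had 1 such region.

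Of the 4 other genes named NCOA, which are not p160 genes, only NCOA7 had a region in all 4 lists. NCOA5 had no region, NCOA4 had 2 and NCOA6 had 4, 2 of them untreated recurrent. Of 12 other coactivator genes, 2 had such a region: NRIP1, which codes for a receptor-interacting corepressor and coactivator, and PPARGC1A, the gene of PGC-1alpha. Of 7 corepressor genes, NCOR1 had 1, with 4 and 5 regions without JQ1 and 1 and 5 with it. More regions in the JQ1 list of both replicates, as at NCOA2, were found at 2 of the 48 genes, and fewer at 3. Over all protein-coding genes the shares were 3.47% with more and 4.38% with fewer, so neither count is read as a result about these genes.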

How the data were processed

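GATA2 ChIP-seq of VCaP cells was analysed from 4 peak lists. The submitters' processing notes name Bowtie2, Picard, MACS2 and build hg38; tool versions are not stated there. Each precipitate has a list of its own, per the labels. The fold (a linear ratio), the −log10 p-value and q-value and the whole-number score were deposited by the authors. The score follows the q-value and was not used. Only peaks of the assembled nuclear chromosomes were used (10 lines of JQ1 replicate 1 and 8 of untreated replicate 2 were left out), and each line counted as 1 peak.

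Genes came from a RefSeq table of GRCh38.p14, the build of the files. The fold could be written as the pileup plus 1 over the local background plus 1, and the p-value as the Poisson tail of both, for 98.8% to 100% of lines (within 0.01 on the log10 scale). The pileup of untreated replicate 2 was scaled by 0.686. The lowest background was 1.25 and 1.34 fragments without JQ1 and 1.13 and 1.56 with it. Recovery and merging were tested on simulated data. Python 3.11.15, pandas 2.3.3, numpy 2.4.6 and scipy 1.17.1 were used.

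The members and the coregulator lists were chosen with earlier results of these data known. Every region in all 4 lists, recurrent in a group or separated is described, with the strongest others. Up to 4 coregulator genes per list are named, by mean rank. For each member, the 3 genes of most similar rank are named. Of the genes these rules pick, 2 are not reported here. Alternatives were distances of 50 and 10 kb, a −log10 q of 5 or more, lists of equal length, other overlap rules, ranking by fold and leaving out a replicate. Counting intervals once was chosen after seeing the data.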

Additional observations from a re-analysis of the deposited data

How the results depend on the processing

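The 4 regions in all 4 lists stayed between 3 and 4 under the other distances, thresholds, list lengths and overlap rules. The count was 3 at a −log10 q of 5 or more and with lists of equal length. In both settings NCOA2 had no such region. With lists of equal length, 3 regions were untreated recurrent in place of 5 and 5 were JQ1 recurrent in place of 9, and the replicate 2 lists held 6 peaks each near the 3 genes in place of 18 and 31. At a −log10 q of 5 or more, 1 region was separated towards untreated in place of 0. It was the NCOA1 region 55.2 kb upstream, whose JQ1 replicate 2 peak had 3.86. The log2 ratio of JQ1 to untreated peaks near the 3 genes was 0.68 and stayed above 0 throughout: 0.83 within 50 kb, 0.84 within 10 kb, 0.29 at a −log10 q of 5 or more and 0.42 with lists of equal length. In both of the last settings a single replicate gave the difference: at a −log10 q of 5 or more replicate 1 had 6 peaks in either list, and with equal lengths replicate 2 had 6 in either list. It was 0.58 in replicate 1 and 0.78 in replicate 2, and at NCOA2 it was 1.32 in each. At NCOA3 it was 0 in each, and at NCOA1 0 and 0.19. The replicate block gave the same 0.68, and the labels do not say that a number marks a shared batch.

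Without replicate 1 or without replicate 2, the regions in every remaining list ran from 5 to 16, untreated recurrent regions from 6 to 17 and JQ1 recurrent regions from 9 to 29. With a single list per group, separated regions were 1 in either case for untreated and 4 to 13 for JQ1. Leaving out a replicate means fewer lists have to agree. Ranking by fold kept the median place of the peaks in each list within 1.5 times. The coregulator count of 14 became 12 within 50 kb and 10 with lists of equal length. The cause of these shifts was not tested. Sequencing depth is not known from the files, so what it limits cannot be given.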
